A study of Mus musculus with 40 samples.

Results

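Gfap and 9 other genes that astrocytes switch on in many kinds of brain injury (Vim, Serpina3n, Cd44, Timp1, Lcn2, S1pr3, Cp, Osmr and Aspg) were followed in bulk RNA of mouse cortex after 1 to 5 mild head injuries. The members were taken by gene name, and each of the 10 names matched 1 row of the 55539 features in the count table. Of these, 8 passed the filter on low counts, which kept 15224 features with at least 10 counts in all but 4 or fewer samples. Timp1 and Lcn2 did not pass, so their values are given from a fit of every feature that had a count. The question was how the level of these transcripts varied with the number of injuries and with the time since the last one.

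All animals were female 3xTg-AD mice, a triple transgenic model of Alzheimer's disease kept on the C57BL/6J background, at 2 to 4 months of age, and the tissue was somatomotor cortex of the left hemisphere. Closed-head injury (CHI) was given once daily by a weight drop on the intact skull under isoflurane. The groups were sham (4 samples), 1xCHI at 30 min (3), 4 h (3) and 24 h (4), 2xCHI at 24 h (3), 3xCHI at 30 min (3), 4 h (2) and 24 h (4), 4xCHI at 24 h (3) and 5xCHI at 30 min (3), 4 h (3) and 24 h (4). That makes 39 samples. A further sample of 3xCHI at 4 h, sample 30, was left out. The study removed an animal of that group as an outlier in its protein data without naming the sample in the text used here, and results that turn on sample 30 are given with it as well. The sham mice also carried the 3xTg-AD genotype and received anesthesia without injury, and sham mice with different numbers of anesthesia exposures formed 1 group. The injury therefore always came on top of the transgenic genotype and of isoflurane, and whether the response depends on genotype or strain cannot be told from these samples.

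Astrocytes answer damage to the brain by a change of form and of gene expression called reactivity. Its best known sign is a higher level of GFAP, the intermediate filament protein of the astrocyte skeleton, together with vimentin, the filament protein that Vim encodes. The pan-reactive genes are those that rise both after inflammation and after a blocked vessel, in contrast to genes specific to one or the other. Serpina3n encodes a secreted inhibitor of serine proteases, Timp1 an inhibitor of metalloproteinases, and Cp the ferroxidase ceruloplasmin. Cd44 is a receptor for hyaluronan, S1pr3 a receptor for sphingosine 1-phosphate, and Osmr the receptor subunit for oncostatin M that signals through gp130. Lcn2 encodes the secreted lipocalin 2, which binds iron-carrying siderophores, and Aspg encodes an asparaginase.

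On build GRCm38 (GENCODE release 21), Gfap (ENSMUSG00000020932) lies at chr11:102887336-102900912 on the minus strand and Vim (ENSMUSG00000026728) at chr2:13573927-13582826 on the plus strand. Cd44 (ENSMUSG00000005087, chr2:102811141-102901665, minus) and Lcn2 (ENSMUSG00000026822, chr2:32384633-32388252, minus) lie on the chromosome of Vim. Serpina3n (ENSMUSG00000021091, chr12:104406729-104414329, plus) and Aspg (ENSMUSG00000037686, chr12:112106679-112127559, plus) share another chromosome. The others are Timp1 (ENSMUSG00000001131, chrX:20870166-20874735, plus), S1pr3 (ENSMUSG00000067586, chr13:51408639-51422797, plus), Cp (ENSMUSG00000003617, chr3:19957054-20009145, plus) and Osmr (ENSMUSG00000022146, chr15:6813577-6874969, minus). Counts were summed per gene, so they cover all annotated exons and do not tell transcripts apart. Serpina3n belongs to a cluster of near-identical Serpina3 copies. How reads that fit several copies were assigned is not known, and every value of Serpina3n was a whole number.

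The promoters of 3 members are shown, chosen for the results they belong to: Gfap, Serpina3n, which differed most between 5xCHI and 1xCHI, and Cp, whose level had the lowest correlation with that of Gfap over all 39 samples. Each is the 250 bases before a RefSeq transcript start on GRCm38.p6, written on the strand of the gene. Gfap is chr11:102897201-102897450 (minus strand), Serpina3n is chr12:104406458-104406707 (plus) and Cp is chr3:19956804-19957053 (plus). Capitals mark the single match to TGANTCA, the core of an AP-1 site, which begins at position -177 of the Cp window when the base before the start is counted as -1.
Gfap: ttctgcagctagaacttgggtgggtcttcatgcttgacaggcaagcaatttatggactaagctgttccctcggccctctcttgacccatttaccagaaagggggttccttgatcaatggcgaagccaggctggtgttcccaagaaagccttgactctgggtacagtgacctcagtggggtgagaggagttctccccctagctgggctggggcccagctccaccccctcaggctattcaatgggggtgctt
Serpina3n: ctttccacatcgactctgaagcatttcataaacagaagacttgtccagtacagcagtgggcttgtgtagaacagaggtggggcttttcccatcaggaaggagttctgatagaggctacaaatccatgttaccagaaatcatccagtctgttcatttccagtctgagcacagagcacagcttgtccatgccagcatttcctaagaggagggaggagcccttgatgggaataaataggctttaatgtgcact
Cp: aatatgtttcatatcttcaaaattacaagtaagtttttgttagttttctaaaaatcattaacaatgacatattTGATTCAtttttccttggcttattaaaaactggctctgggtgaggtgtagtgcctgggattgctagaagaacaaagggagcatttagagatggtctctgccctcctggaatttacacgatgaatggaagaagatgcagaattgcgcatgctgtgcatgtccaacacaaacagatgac
Besides TGANTCA, the motifs TTCNNNGAA (the core of a STAT site) and TATAAA were searched on both strands. TTCNNNGAA had no match in the upstream window of any member. Over all 32851 RefSeq windows of this length, TTCNNNGAA matched in 7.02%, TGANTCA in 6.75% and TATAAA in 12.4%. TATAAA matched in Vim, beginning at position -32, and 2 times in a second Cp window. A match is a stretch of letters and not a shown binding site, and the lack of one says only that those letters are not in this window.

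Library totals ran from 15925995 to 27859530 counts (median 19028763), so a count of 0 allowed a level of up to 0.107 to 0.188 CPM, taking 3 counts as the limit and counting error only. CPM is the count of a gene scaled to a common library total, with library sizes adjusted by the TMM method. Pairs of samples within a group (46) differed by more than sampling noise, with a chi-square per feature of at least 6.25, and none was counted as a duplicate. All 12 astrocyte marker genes passed the filter, and the summed level of 10 neuron markers in sham was 12315 to 14090 CPM. Samples 10 (5xCHI 4 h) and 11 (5xCHI 24 h) stood apart, with microglia markers summing to 795 and 1007 CPM, against 325 to 375 in sham and at most 472 in any other sample. They also had the highest astrocyte marker sums (8253 and 9011 CPM, sham 6067 to 7448) and the lowest neuron marker sums (10085 and 8868 CPM). Their oligodendrocyte marker sums, 8046 and 9093 CPM, were the highest as well, with sham at 4965 to 7102 CPM and sample 14 (1xCHI 30 min) at 8032 CPM. In bulk tissue, more cells of a type cannot be told apart from more RNA per cell.

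A second split ran through the data. The 5xCHI samples numbered 7 to 12 and those numbered 31 to 34 differed in the member genes, although both sets held all of the times 30 min, 4 h and 24 h. The labels do not say that sample numbers stand for a batch. Samples 1 to 18 held 1 sham, 6 1xCHI, 5 3xCHI and 6 5xCHI samples, whereas samples 19 to 40 held 3 sham, 4 1xCHI, 4 3xCHI, 4 5xCHI and all 2xCHI and 4xCHI samples. Values within the ranges are given beside the main results. Each sample is taken as a separate mouse, and p-values measure the spread between these samples.

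In sham cortex the members spanned a wide range of levels. Divided by the summed exon length, Gfap had 34.3 CPM per kilobase, Vim 7.13, Serpina3n 3.71, S1pr3 2.05 and Cp 1.35. Aspg (0.601), Timp1 (0.350), Osmr (0.323), Cd44 (0.268) and Lcn2 (0.0622) followed below 1 CPM per kilobase. Gfap thus led the list on this scale and Lcn2 closed it, with only 1 to 6 counts per sham library.

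Gfap was 147, 174, 133 and 124 CPM in the sham samples 6, 20, 35 and 39. It was 145, 168 and 169 CPM at 30 min after 1xCHI, 331, 204 and 229 CPM at 4 h, and 212, 186, 105 and 119 CPM at 24 h. After 2xCHI it was 141, 118 and 137 CPM. These values show 1xCHI at 4 h wholly above sham, and the other early groups overlapping sham. After 3xCHI, Gfap was 209, 410 and 227 CPM at 30 min, 478 and 211 CPM at 4 h, and 486, 428, 252 and 527 CPM at 24 h. After 4xCHI it was 199, 149 and 246 CPM. All 9 samples of 3xCHI lay above the highest sham sample, and so did 2 of the 3 samples of 4xCHI. The sample left out, 30, was also 3xCHI and had 114 CPM, below every sham sample. After 5xCHI, the samples 7, 8 and 31 at 30 min had 321, 558 and 106 CPM, the samples 9, 10 and 32 at 4 h had 341, 1627 and 122 CPM, and the samples 11, 12, 33 and 34 at 24 h had 2410.2, 190, 113 and 130 CPM. The 6 samples numbered 7 to 12 were all above the highest sham sample, and of the 4 samples numbered 31 to 34 none was, with 3 below the lowest sham sample.

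**Figure D1:**
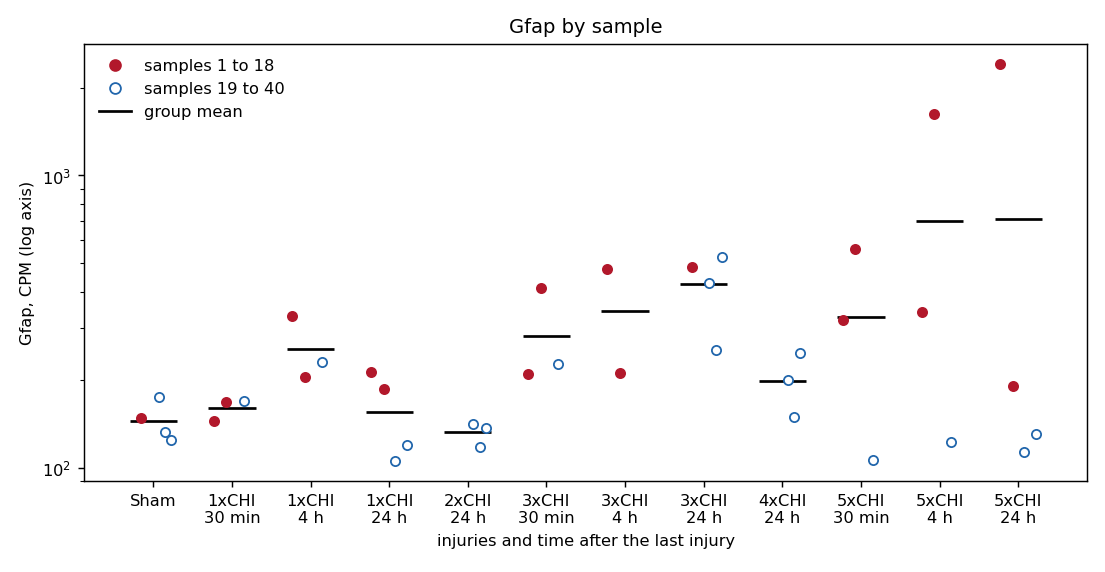
Gfap level of each of the 39 samples in CPM on a log axis, over the 12 groups of injury number and time. Filled points are samples 1 to 18, open points samples 19 to 40, and the short line is the group mean. Every 3xCHI sample shown lies above the highest sham sample (174 CPM), and the 5xCHI samples part into 6 filled points above it and 4 open points below it.

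In order of the group means, Gfap was lowest after 2xCHI (132 ± 12.2 CPM, SD, n = 3) and in sham (145 ± 21.8, n = 4). Then came 1xCHI 24 h (156 ± 51.7, n = 4), 1xCHI 30 min (160 ± 13.8, n = 3), 4xCHI (198 ± 48.2, n = 3), 1xCHI 4 h (255 ± 67.5, n = 3) and 3xCHI 30 min (282 ± 111, n = 3). The upper end held 5xCHI 30 min (328 ± 226, n = 3), 3xCHI 4 h (344 ± 189, n = 2), 3xCHI 24 h (423 ± 121, n = 4), 5xCHI 4 h (697 ± 813, n = 3) and 5xCHI 24 h (711 ± 1133, n = 4). The ranges of every pair of neighbours in this order overlapped. In both 5xCHI groups at the top the SD exceeded the mean, because 1 sample in each, 10 or 11, carried most of it.

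Against sham, the mean log2(CPM + 1) of Gfap was 1.22 higher after 3xCHI (9 against 4 samples, exact permutation test, two-sided, p = 0.0042, 0.021 after Benjamini-Hochberg adjustment over 5 injury numbers). With sample 30 kept it was 1.06 (exact p = 0.013, adjusted 0.0649). With sample 1 or sample 3, the other 3xCHI samples at 4 h, left out in its place, it was 0.99 (exact p = 0.0322, adjusted 0.161) or 1.12 (exact p = 0.0154, adjusted 0.0769), so the adjusted test passed only without sample 30. Within samples 19 to 40 the difference was 1.24, with p = 0.0571 by the same exact test of 4 against 3 samples (0.214 adjusted), where the smallest possible p was 0.0286. In samples 1 to 18, where there was 1 sham sample and no test, it was 1.18. The difference for 1xCHI was 0.31 (exact p = 0.248, adjusted 0.31), with 0.44 in samples 1 to 18 against the 1 sham sample and 0.06 in samples 19 to 40 (exact p = 0.914). Those for 2xCHI (-0.13, exact p = 0.429, adjusted 0.429) and 4xCHI (0.43, exact p = 0.114, adjusted 0.286) did not pass either. For 5xCHI the difference was 1.12 (exact permutation p = 0.203, adjusted 0.31), and it was 0.45 without samples 10 and 11 (exact p = 0.394). Within samples 19 to 40 the 5xCHI difference turned to -0.27 (exact p = 0.0857), while in samples 1 to 18, again with 1 sham sample, it was 2.01. The mean of the 3xCHI samples was 2.48 times that of sham, and that of the 5xCHI samples 31 to 34 was 0.82 times. That of the 5xCHI samples 7 to 12 was 6.27 times with samples 10 and 11 and 2.44 times without them.

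Most of the other members were split in the same way, whereas for Cp, Aspg and S1pr3 both sets of 5xCHI samples overlapped. In all, 7 of the 10 members, and 5 of the 8 past the filter, were higher in every sample of 7 to 12 than in every sample of 31 to 34, as were 3.33% of all features (507 of 15224), and the sets were formed after the values were seen. Counting how many of the 10 members lay above their own highest sham value, the 5xCHI samples 7 to 12 had 9, 9, 8, 9, 9 and 9, and the 5xCHI samples 31 to 34 had 2, 1, 1 and 2. The 1xCHI samples at 4 h had 8, 7 and 7. The 3xCHI samples had 5 to 9, apart from sample 4 at 30 min with 3. Sample 30, left out here, had 0. The 2xCHI samples had 1 each, and the 4xCHI samples 1, 0 and 3. Of all features past the filter, 21.7 to 39.4% lay above their own highest sham value in the 5xCHI samples 7 to 12, 14.5 to 28% in the samples 31 to 34, 21.3 to 35.8% in 1xCHI at 4 h, 19.1 to 30.8% in 3xCHI, 20.3 to 27.5% in 2xCHI and 15.6 to 23.9% in 4xCHI. The counts of 1 or 2 members in the samples 31 to 34 and after 2xCHI were thus near or below the share over all features.

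**Figure D2:**
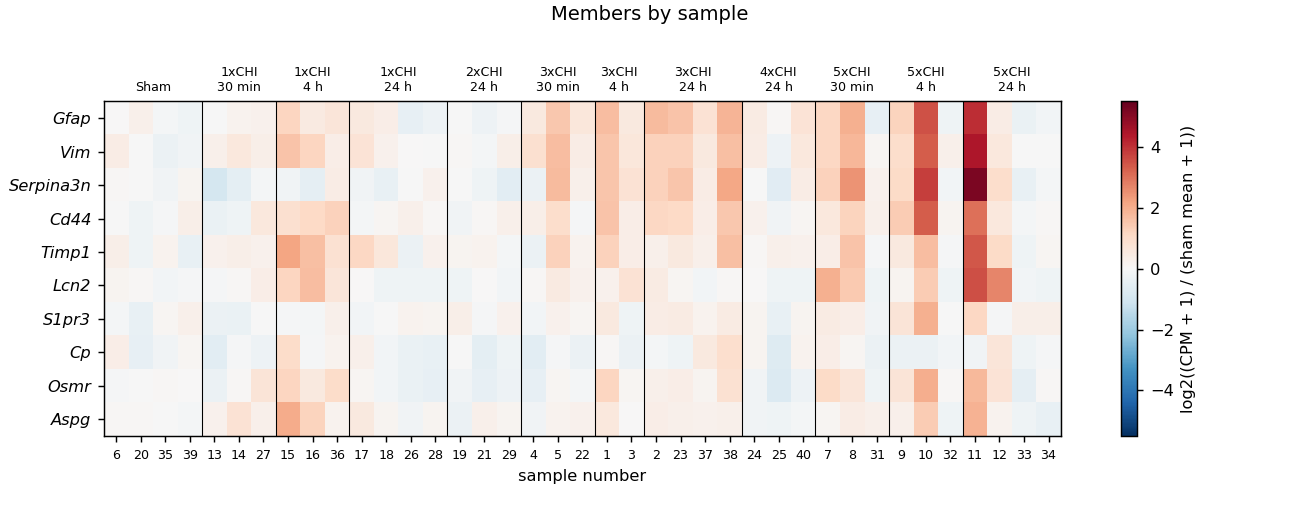
Heat map of the 10 members (rows) in the 39 samples (columns, by group), coloured by log2 of CPM + 1 over the sham mean + 1. The 1xCHI 4 h samples, most 3xCHI samples and the 5xCHI samples 7 to 12 are warm across most rows, samples 10 and 11 most of all, and the 5xCHI samples 31 to 34 resemble sham.

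After a single injury, 6 of the 10 members were wholly above sham at 4 h. Aspg was 2.23, 2.28, 2.09 and 1.86 CPM in the sham samples and 11.9, 6.37 and 2.53 CPM at 4 h. Osmr was 3.76, 3.78, 4.08 and 4.05 CPM in sham and 10.3, 6.21 and 8.8 CPM at 4 h. Cd44 was 1.74, 1.39, 1.66 and 2.47 CPM in sham and 4.14, 4.94 and 5.87 CPM at 4 h. For each of these genes every 4 h sample was above every sham sample, and for Aspg sample 36 was only just so. The edgeR quasi-likelihood estimates of the log2 fold change at 4 h were 1.71 ± 0.50 for Aspg (SE, unadjusted p = 0.00174, adjusted over all features 0.333), 1.11 ± 0.45 for Osmr (0.0204 and 0.411) and 1.46 ± 0.69 for Cd44 (0.0414 and 0.455). Without sample 15 that for Aspg was 1.06. These were the 3 of 8 members at an unadjusted p under 0.05, against 6.96% of all features being higher at that level. None passed after adjustment, as none of the 15224 features did (0%).

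The low-count inhibitor and lipocalin genes were also high at 4 h. Timp1 was 4.86, 3.19 and 1.37 CPM in the samples 15, 16 and 36 (94, 60 and 27 counts), against 0.653, 0.107, 0.483 and 0 CPM in sham (12, 3, 9 and 0 counts). Lcn2 was 1.6, 2.81 and 0.86 CPM (31, 53 and 17 counts), against 0.272, 0.214, 0.0536 and 0.112 CPM in sham. No 4 h sample of either gene overlapped sham. In the fit of all features with a count, the edgeR log2 fold changes were 3.34 ± 1.02 for Timp1 (unadjusted p = 0.00211, adjusted 0.452) and 3.32 ± 1.16 for Lcn2 (0.00629 and 0.55). With Gfap, Cd44, Osmr and Aspg these make the 6 members named above. Of these, 4 were among the features past the filter, where 3.07% of all features lay wholly above sham.

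The estimate for Gfap itself at 4 h was 0.82 ± 0.72 (edgeR, unadjusted p = 0.265). Vim was 104, 77.9 and 43.3 CPM at 4 h, against 45.6, 33.7, 26.9 and 29.1 CPM in sham, and overlapped it through sample 36. Serpina3n showed no such pattern, with 6.46, 5.15 and 10.4 CPM at 4 h and 8, 7.56, 6.54 and 8.49 CPM in sham, and no 4 h sample of S1pr3 was above the highest sham sample. The median log2 fold change over the 8 members at 4 h was 0.96, beside 0.02 over all features. Markers of other cells moved with this group: all 10 meningeal fibroblast markers had positive estimates (median 0.95, 3 at an unadjusted p under 0.05), led by sample 15 with a sum of 572 CPM, against 151 and 111 CPM in the other 4 h samples and 123 to 202 CPM in sham. Neuron markers summed to 10566 and 11148 CPM in samples 15 and 16, below all sham samples (12315 to 14090 CPM), and to 13561 CPM in sample 36. Ependymal markers summed to 22.2, 39.6 and 17.2 CPM at 4 h and to 10.1 to 17.3 CPM in sham. Their part in the 4 h values of the members was not tested. Lcn2 is also a granule protein of neutrophils. The 10 neutrophil marker genes summed to 0.672, 0.531 and 0.405 CPM in samples 15, 16 and 36, and to 0.169 to 1.32 CPM in sham. The highest sum, 4.01 CPM, was in sample 8 (5xCHI 30 min), and Ly6g was 0 in all 39 samples. Lcn2 was itself low in CPM, and the part of neutrophils in its level was not tested.

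At 30 min and 24 h after 1xCHI most members overlapped sham. Aspg at 30 min was wholly above it, with 2.69, 4.37 and 2.77 CPM. In these samples, 13, 14 and 27, 36.7, 33.3 and 16.9% of all features lay above their own highest sham value. The share of features wholly above sham at 30 min was not counted. At 30 min, 0 of 8 members were at an unadjusted p under 0.05 and higher (13% of all features were), and at 24 h 0 of 8 (3.55%). Lcn2 had 0 counts in 3 of the 4 samples at 24 h, and 3 counts in the other. Timp1 was 1.91 and 1.03 CPM in the 24 h samples 17 and 18 and 0.0403 and 0.556 CPM in samples 26 and 28, so that for Timp1 the samples from the lower number range were the higher ones. The same order held for Gfap, Vim, Cp, Osmr and Aspg, the reverse order for Serpina3n and S1pr3, and neither for Cd44 and Lcn2. Over the time points together, 1xCHI against sham gave 1 of 8 members at an unadjusted p under 0.05 (10.9% of all features were higher), which was Aspg at 0.94 ± 0.44 (unadjusted p = 0.0403, adjusted 0.28, edgeR). It was 0.59 without sample 15 and 0.17 in samples 19 to 40, and the mean over that of sham was 2.47 times in samples 1 to 18 and 1.11 times in samples 19 to 40. The median over members was 0.39.

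**Figure D3:**
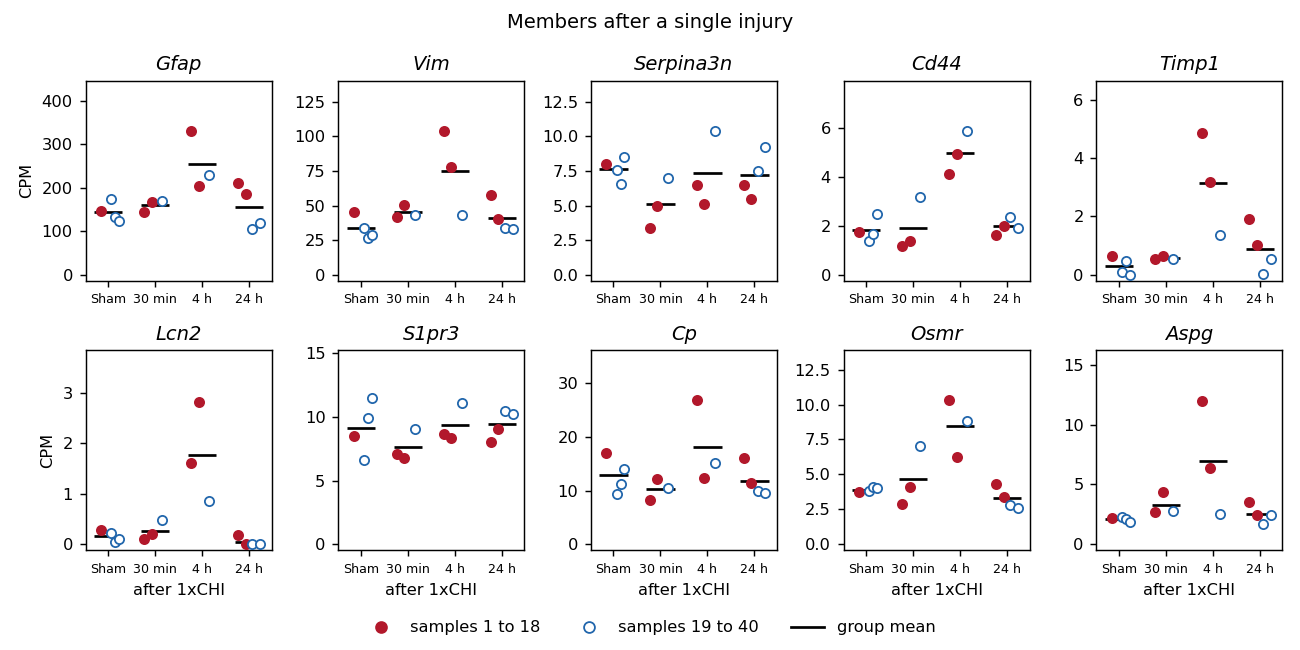
CPM of each of the 10 members in sham (n = 4) and at 30 min (n = 3), 4 h (n = 3) and 24 h (n = 4) after 1xCHI, 1 panel per gene, each point a sample and the line the mean. Gfap, Cd44, Timp1, Lcn2, Osmr and Aspg are wholly above sham at 4 h, and at 24 h their ranges overlap that of sham.

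After 3 injuries, both filament genes lay wholly above sham. Vim was 62.5, 110 and 45.8 CPM at 30 min, 99.8 and 52.4 CPM at 4 h, and 82.3, 83.6, 49.6 and 108 CPM at 24 h. As with Gfap, all 9 samples were above the highest sham sample (45.6 CPM), though sample 22 was above it by a narrow margin, and sample 30 had 34.4 CPM and overlapped sham. These were the 2 members that did not overlap sham, where 0.243% of all features lay wholly above it. By edgeR, 3xCHI against sham gave 1.31 ± 0.60 for Gfap (unadjusted p = 0.0343, adjusted 0.911), 1.19 ± 0.61 for Vim (0.0574), 1.25 ± 0.62 for Cd44 (0.0527) and 1.33 ± 0.76 for Serpina3n (0.0866). Gfap was the 1 of 8 members at an unadjusted p under 0.05 (2.26% of all features were higher), and 0% of features passed after adjustment. The median over the 8 members was 0.81, and that over all features was close to 0. Microglia markers summed to 362 to 472 CPM in the 3xCHI samples, above the sham range of 325 to 375 in all but sample 4, and their part in these values was not tested.

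Serpina3n, the protease inhibitor, was above sham in most 3xCHI samples. It was 5.97, 28.2 and 9.49 CPM at 30 min, 23.7 and 13.8 CPM at 4 h, and 20, 23.7, 10.6 and 37.1 CPM at 24 h. Apart from sample 4, every 3xCHI sample used was above the highest sham sample (8.49 CPM). Sample 30, left out here, had 7.49 CPM and overlapped sham. Against 1xCHI, the edgeR estimate for Serpina3n was 1.54 ± 0.55 (unadjusted p = 0.00823, adjusted 0.322) and that for Gfap 0.94 ± 0.43 (0.0335 and 0.403). These were 2 of 8 members (3.9% of all features were higher at that level), and none passed after adjustment (0% of features). Without samples 10 and 11, which are not part of this contrast but share its estimate of spread, Serpina3n passed at 1.55 (adjusted p = 0.0303). Unlike the 5xCHI values, these had the same direction in both number ranges: Serpina3n was 1.80 and Gfap 0.80 in samples 1 to 18, and 1.25 and 1.21 in samples 19 to 40.

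The time points of 3xCHI were also set against 2xCHI at 24 h, the state in which the mice stood before the last injury. At 24 h, Gfap, Vim, Serpina3n, Cd44, Timp1 and Osmr were each higher in all 4 samples of 3xCHI than in all 3 samples of 2xCHI. For example, Cd44 was 5.27, 5.03, 2.68 and 6.87 CPM, against 1.5, 1.91 and 2.45 CPM. Of these 6 members, 5 were past the filter, where 3.8% of all features were wholly higher. Gfap (1.68 ± 0.76, unadjusted p = 0.0345) and Cp (0.66 ± 0.30, unadjusted p = 0.039) were the 2 of 8 members below 0.05 by edgeR (2.44% of all features were higher, both adjusted p 0.943), and Cp was 0.39 without sample 38. At 4 h, Osmr was the only 1 of 8 (1.29 ± 0.55, unadjusted p = 0.0257, adjusted 1, against 1.04% of features), and at 30 min there was 0 of 8 (1.16%). The Osmr estimate was 0.56 without sample 1, 1.77 without sample 3 and 0.93 with sample 30 kept. Samples 1 and 3 come from the lower number range and all 2xCHI samples from the upper one, so injury and range cannot be told apart there. None of these time points had a feature past the adjusted threshold (0%). The meningeal fibroblast markers again had 10 of 10 positive estimates at 24 h (median 0.84, 3 at an unadjusted p under 0.05), and their part was not tested.

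The 5xCHI groups held the highest level of 8 of the 10 members, all but Cp and Aspg, and also levels like those of sham. Serpina3n was 19.7, 47.4, 16.9, 120, 308 and 16 CPM in the 5xCHI samples 7 to 12, and 9.18, 6.73, 5.57 and 6.92 CPM in the samples 31 to 34. Vim was 74.9, 122, 67, 351, 764 and 50.4 CPM in the samples 7 to 12, and 36.5, 40.8, 33 and 33.4 CPM in the samples 31 to 34. Cd44 was 3.25, 5.63, 6.31, 27.4, 22 and 3.19 CPM in the former and 2.47, 2.12, 1.61 and 1.93 CPM in the latter. For these genes both sets of 5xCHI samples were apart without overlap, and the set 31 to 34 lay in or near the sham range. S1pr3 was milder, with 12.8, 12.2, 15.4, 38, 21.1 and 8.64 CPM against 7.78, 8.85, 11.6 and 11.8 CPM, and the sets overlapped through sample 12. Lcn2 was 3.54, 2.13, 0.272, 2.06, 12.7 and 6.51 CPM in the samples 7 to 12, and 0, 0, 0.0489 and 0 CPM in the samples 31 to 34, a single count in all. Cp, from 10.2 to 21.4 CPM in the former and from 10.3 to 12.3 CPM in the latter, and Aspg, where sample 31 (2.74 CPM) exceeded samples 7 and 12 (2.38 and 2.6 CPM), overlapped. Timp1 ranged from 0.696 to 12.9 CPM in the former and from 0.0977 to 0.394 CPM in the latter. Osmr was 9.28, 6.89, 6.96, 18.8, 16 and 7.2 CPM against 3.22, 4.18, 2.54 and 4.2 CPM.

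Against sham, 5xCHI gave 6 of 8 members at an unadjusted p under 0.05 by edgeR, and 7.51% of all features were higher at that level. These were Serpina3n (log2 fold change 2.87 ± 0.80), Vim (2.22 ± 0.64), Cd44 (2.08 ± 0.63), Gfap (2.03 ± 0.62), Osmr (1.02 ± 0.41) and S1pr3 (0.71 ± 0.27). Their adjusted p ran from 0.36 to 0.391, and 0% of features passed. By DESeq2, 1 of 8 members passed in this comparison (Serpina3n, adjusted p = 0.0383), beside 0.0657% of all features (10 of 15224), and 5 of 8 in 5xCHI against 1xCHI, beside 4.07% (620). The median over the members was 1.53, beside 0.01 over all features. Leaving out 1 sample lowered these estimates to as little as 1.84 for Serpina3n, 1.40 for Vim and 1.42 for Gfap without sample 11, and to 1.57 for Cd44, 0.77 for Osmr and 0.42 for S1pr3 without sample 10. Without both they were 1.06 for Serpina3n, 0.87 for Cd44, 0.75 for Vim and 0.70 for Gfap. Within samples 19 to 40, the estimates turned to -0.29 for Gfap, -0.09 for Serpina3n and -0.17 for Osmr, and were 0.26 for Vim, 0.15 for Cd44 and 0.11 for S1pr3.

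Against 1xCHI, 4 members passed: Serpina3n was 3.07 ± 0.55 higher on the log2 scale (edgeR, adjusted p = 0.00669), Gfap 1.67 ± 0.42 (0.033), Vim 1.59 ± 0.43 (0.0427) and S1pr3 0.74 ± 0.20 (0.0394). These 4 of 8 stood beside 2.27% of all features called (346 of 15224). At an unadjusted p under 0.05 there were 6 of 8 members higher, with Cd44 (1.42 ± 0.43, adjusted p = 0.0649) and Osmr (0.60 ± 0.30, 0.286) added, beside 8.55% of all features. Cp (-0.03) and Aspg (-0.17) showed no difference beyond their errors. The median over the members was 1.08.

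These calls rested on the lower number range and on samples 10 and 11. In samples 1 to 18 alone, Serpina3n was 4.06, Cd44 2.17, Gfap 2.14, Vim 1.96, S1pr3 1.19 and Osmr 1.08 higher in 5xCHI than in 1xCHI, and these 6 of 8 members passed, as did 2693 of the 15224 features. In samples 19 to 40 the same estimates were -0.27, -0.72, -0.40, -0.10, -0.03 and -0.58, and 0 members and 0 features passed. The 1xCHI reference of Serpina3n differed between the ranges as well. In samples 1 to 18 all 6 1xCHI samples lay below the lowest sham sample, with a mean of 0.70 times that of sham. In samples 19 to 40 this held for 0 of 4, with a mean of 1.12 times. Without samples 10 and 11, the estimates were 1.28 for Serpina3n (edgeR, adjusted p = 0.0507), 0.34 for Gfap, 0.33 for S1pr3, 0.21 for Cd44 and 0.13 for Vim, with 0 members and 120 features called. Leaving out sample 10 or sample 11 alone left 1 member called, and so did leaving out any of the 1xCHI samples 13, 14, 16 and 17. The cell type markers moved along: by edgeR, 5 of 10 microglia markers passed as higher in 5xCHI than in 1xCHI and 9 were higher at an unadjusted p under 0.05, and of 12 astrocyte markers 0 passed and 8 were higher at that level. Of the choroid plexus markers 3 of 10 were tested and 1 passed, with sums of 2577 CPM in sample 31, 1355 CPM in sample 32 and 422 CPM in sample 12, against 9 to 26.2 CPM in sham. The part of these cells in the members' values was not tested, and the number range cannot be told apart from whatever else differed between those samples.

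**Figure D4:**
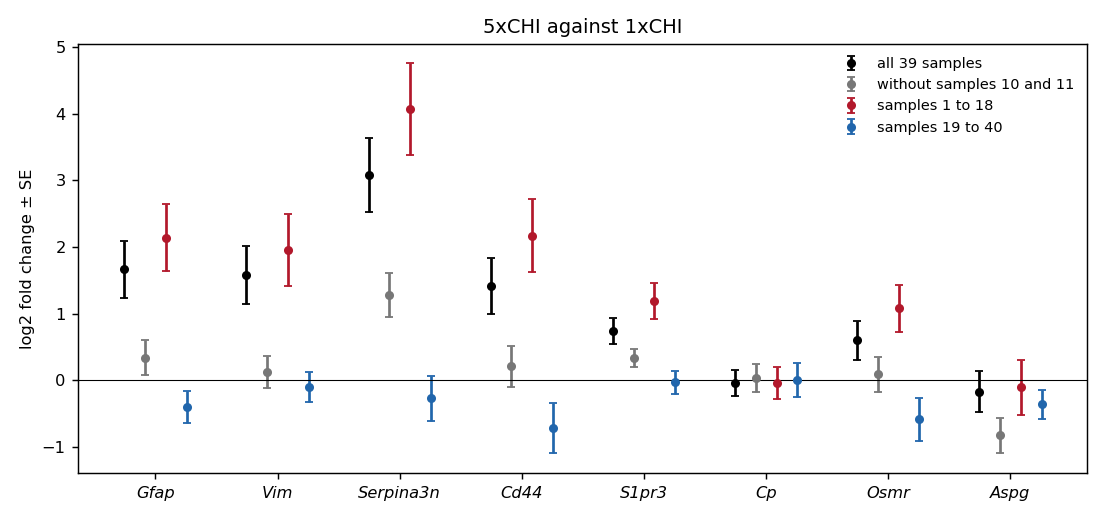
Log2 fold change (± SE) of the 8 members past the filter in 5xCHI against 1xCHI from edgeR, fitted on all 39 samples, without samples 10 and 11, on samples 1 to 18 and on samples 19 to 40. For Serpina3n the estimates are 3.07, 1.28, 4.06 and -0.27, and for Gfap 1.67, 0.34, 2.14 and -0.40.

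The samples after 2 and 4 injuries, all from the upper number range, overlapped sham for most members. Osmr was 3.24, 2.56 and 3.04 CPM after 2xCHI and 3.29, 1.89 and 3.06 CPM after 4xCHI, all below the lowest sham sample (3.76 CPM). The sham values of Osmr lay close together, from 3.76 to 4.08 CPM, and 14 of all 39 samples were below them. The share of all features wholly below sham in these groups was not counted. The edgeR estimates of Osmr against sham were -0.41 ± 0.53 and -0.51 ± 0.54 (adjusted p = 0.955 and 1). The 2xCHI and 4xCHI samples are the reference of the comparisons of 3xCHI and 5xCHI with the state before the last injury. By edgeR, 0 of 8 members were higher at an unadjusted p under 0.05 after 2xCHI (2.33% of all features were) and 0 of 8 after 4xCHI (0.663%). Median estimates were -0.02 in both, and 0% of features passed. Set against 4xCHI, the times after the fifth injury gave 1 of 8 members at 30 min (Osmr, 1.23 ± 0.51, unadjusted p = 0.0219, beside 3.52% of all features), 7 of 8 at 4 h (3.53%) and 6 of 8 at 24 h (4.26%). At 4 h the largest were Serpina3n (2.66) and Cd44 (2.61), and at 24 h Serpina3n (3.47) and Vim (2.41). None passed after adjustment, at 0.894 or more at 4 h and 0.635 or more at 24 h. These groups of 3 and 4 samples each held 1 of the samples 10 and 11, and without sample 11 the 24 h estimates for Vim (-0.10) and Gfap (-0.46) turned and those for Serpina3n, Cd44 and Aspg fell to 0.32, 0.19 and 0.09. Without sample 10 the 4 h estimates kept their direction, at 0.64 for Serpina3n, 1.10 for Cd44 and 0.22 for Gfap.

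Over the 22 samples at 24 h and sham, the slope per injury by edgeR was 0.68 ± 0.15 for Serpina3n, 0.49 ± 0.12 for Vim, 0.44 ± 0.11 for Gfap, 0.38 ± 0.11 for Cd44, 0.17 ± 0.07 for Osmr and 0.09 ± 0.04 for S1pr3. These 6 of 8 members were positive at an unadjusted p under 0.05, beside 4.54% of all features, and the adjusted p was 0.568 to 0.699 (0% passed). Without sample 11 the slopes were 0.16 for Serpina3n, 0.14 for Gfap, 0.13 for Cd44, 0.10 for Vim, 0.057 for Osmr and 0.042 for S1pr3. In the fit of all features with a count, Lcn2 had the steepest slope, 1.28 ± 0.24 (edgeR, unadjusted p = 1.27e-05, adjusted 0.138). The ranks told less: Spearman's rho with injury number was 0.32 for Gfap, 0.31 for Vim, 0.38 for S1pr3, 0.33 for Cd44, 0.21 for Serpina3n, 0.14 for Osmr and 0.058 for Lcn2. The fitted slope of Lcn2 thus rested on samples 11 and 12, at 12.7 and 6.51 CPM, with all other samples at 24 h at or below 0.604 CPM.

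Time since the last injury was tested across 1xCHI, 3xCHI and 5xCHI. Any difference between time points gave 2 of 8 members at an unadjusted p under 0.05 by edgeR, Cp (unadjusted p = 0.0398) and Osmr (unadjusted p = 0.0445), beside 4.25% of all features, and 0 after adjustment, where 0.0328% of features passed. A time course that differed between injury numbers gave 1 of 8, Cp (unadjusted p = 0.0334, adjusted 1), beside 2.63% of features, and 0% passed. Lcn2 had an unadjusted p = 0.00331 for the first (adjusted 0.855) and an unadjusted p = 0.00182 for the second (adjusted 1) in the fit of all features with a count. By mean, Osmr was highest at 4 h after 1xCHI, 3xCHI and 5xCHI, but after 3xCHI this order rested on sample 1. Without sample 1 the 4 h value after 3xCHI was 4.35 CPM, below the 24 h mean of 5.64 CPM. Sample 30, the 3xCHI 4 h sample left out, had 2.56 CPM. After 5xCHI samples 10 (18.8 CPM) and 11 (16 CPM) raised the means at 4 h and 24 h, and the other values were 6.96 and 4.18 CPM at 4 h and 7.2, 2.54 and 4.2 CPM at 24 h. The ranges at 30 min and 4 h overlapped after 1xCHI and after 5xCHI, and those at 4 h and 24 h after 3xCHI and after 5xCHI.

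Across the 39 samples, log2(CPM + 1) of Vim followed that of Gfap most closely of the members (Pearson's r = 0.956, Spearman's rho = 0.896). Cd44 (0.897 and 0.712), Serpina3n (0.909 and 0.681), Osmr (0.803 and 0.738) and Timp1 (0.797 and 0.766) came next. S1pr3 (0.737 and 0.467), Aspg (0.655 and 0.596) and Lcn2 (0.643 and 0.685) were looser. Each of these 8 passed a permutation test by both measures after Benjamini-Hochberg adjustment over the 9 members, with the smallest unadjusted p, 1e-05, being the smallest that 100000 permutations can give. Cp had r = 0.205 (permutation p = 0.211) and rho = 0.347 (permutation p = 0.0316, also 0.0316 adjusted), so it passed by rank alone. Without samples 10 and 11, the farthest from the Gfap median, r was 0.909 for Vim, 0.801 for Serpina3n, 0.784 for Cd44, 0.667 for Timp1, 0.664 for Osmr, 0.488 for S1pr3, 0.402 for Aspg, 0.401 for Lcn2 and 0.430 for Cp. Within samples 1 to 18 and samples 19 to 40 in turn, r was 0.964 and 0.900 for Vim, 0.941 and 0.835 for Serpina3n, 0.944 and 0.695 for Cd44, and 0.895 and 0.383 for S1pr3. Cp had no such relation in the former (-0.114) and a positive one in the latter (0.610).

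**Figure D5:**
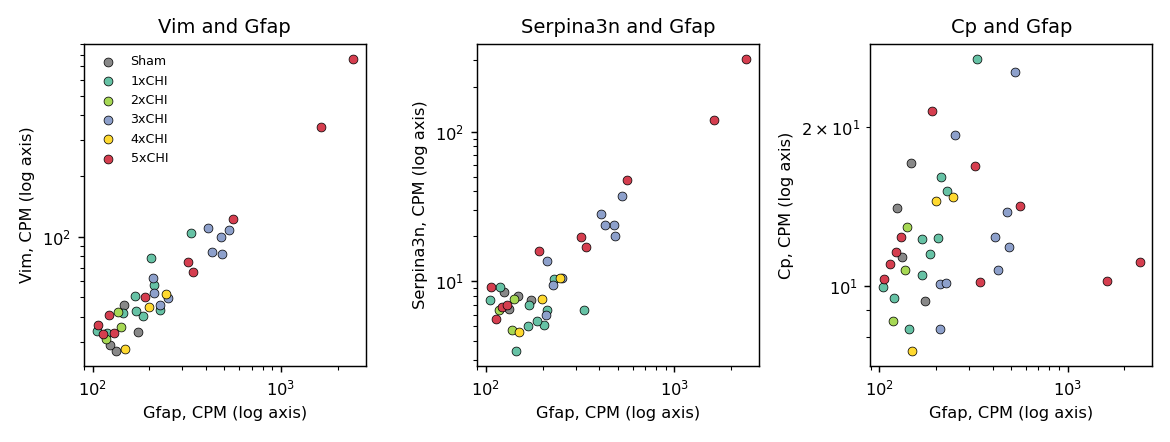
Vim, Serpina3n and Cp against Gfap in the 39 samples, all in CPM on log axes, with points coloured by injury number. Vim follows Gfap over the whole range (r = 0.956), Serpina3n follows it mainly above the sham level (r = 0.909), and Cp stays between 7.51 and 26.9 CPM while Gfap runs from 105 to 2410.2 CPM.

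Of the 15223 other features past the filter, the 10 with the highest Spearman's rho with Gfap over these samples were C4b (0.910), Vim (0.896), Slc14a1 (0.857), Flnc (0.852), Anxa2 (0.834), Slc15a3 (0.822), Lyz2 (0.816), Cxcl16 (0.814), Gsn (0.807) and Pros1 (0.804). Vim was thus 2 in rank, and the next members were Osmr at 28, Cd44 at 40, Serpina3n at 56, Aspg at 146, S1pr3 at 481 and Cp at 1266. By Pearson's r, 6 of these 10 features were again among the first 10. C4b encodes a complement component, and Lyz2 a lysozyme of macrophages and microglia, whose marker sum was highest in the samples with the highest Gfap.

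In the wider pathways 1 gene passed after adjustment. Of the 13 genes of gp130, JAK and STAT3 signalling, through which the receptor of Osmr acts, 9 passed the filter. By edgeR, Il6ra, a receptor subunit for interleukin 6, passed as higher in 5xCHI than in 1xCHI (0.48 ± 0.11, adjusted p = 0.0162), and Stat3, the transcription factor of the pathway, came near (0.34 ± 0.10, 0.0541), with 3 of 9 higher at an unadjusted p under 0.05 (8.55% of all features were). Against sham, 5xCHI gave 0.14 for Il6ra (unadjusted p = 0.326) and 0.20 for Stat3 (unadjusted p = 0.139), and at 4 h after 1xCHI Il6ra was -0.49 (unadjusted p = 0.0168). Socs3, the feedback inhibitor that STAT3 switches on, was 1.24 ± 0.41 in 5xCHI against sham (unadjusted p = 0.00466, adjusted 0.372), the 1 of 9 at that level (7.51% of all features were higher). Of the 5 other intermediate filament genes and partners, Synm alone was below an unadjusted p of 0.05 in 5xCHI against 1xCHI (0.28 ± 0.10, unadjusted p = 0.00614). There 8.55% of all features were higher at that level. Among 14 ligands, receptors and targets of the member proteins 10 were tested, and Spp1, which encodes osteopontin, a ligand of CD44 (1.91 ± 0.77), and Cd63, which encodes a cell surface partner of TIMP1 (0.69 ± 0.28), were below 0.05 in 5xCHI against sham (unadjusted p = 0.0172 for both, adjusted 0.391). In that comparison 7.51% of all features were higher at that level. Spp1 was 1.94 also at 4 h after 1xCHI (unadjusted p = 0.0302), where Sphk1, which encodes a kinase that makes sphingosine 1-phosphate, was 0.70 (unadjusted p = 0.0334). At 4 h, 6.96% of all features were higher at an unadjusted p under 0.05. In 5xCHI against 1xCHI, Mmp2, a metalloproteinase, was 0.57 (unadjusted p = 0.0185) and Sphk1 -0.41 (unadjusted p = 0.0444). Of 3 other pan-reactive genes only Hspb1, which encodes a small heat shock protein, was tested (1.20 ± 0.42 in 5xCHI against sham, unadjusted p = 0.0068). For the genes of these lists, no estimate within a sample number range, or without the samples with the highest Gfap, is given here. Whether the Il6ra call rests on the lower range or on those samples, as the member calls did, was not tested. The same holds for the differences of the other genes named here. After 3xCHI against sham, none of these lists had a gene at an unadjusted p under 0.05. In 5xCHI against 1xCHI at that level, 1 of 10 oligodendrocyte markers was lower and 1 of 10 endothelial markers higher, and of 10 neuron markers 1 was higher and 1 lower, the latter also after adjustment. Such a count of 1 of 10 higher is near the 8.55% of all features that were higher. The share of features that were lower is not given here.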

How the data were processed

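RNA of 40 left somatomotor cortex samples was sequenced, and the authors deposited 1 table of counts per gene. The submitters' processing notes name the genome build mm10, and the aligner and counter are not given in the sources used here. The authors deposited each value as an estimated count per gene, 4.46% of them not whole numbers, and these were rounded before testing, while every value of the members was whole. Groups came from the labels, and sample 30 was left out, leaving 39 samples.

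The filter on low values allowed 4 samples below 10 counts per feature and kept 15224 of 55539 features. Timp1 and Lcn2 were tested in a fit of the 32784 features with a count. CPM and tests used TMM library sizes in edgeR 4.0.16 (R 4.3.3), with the quasi-likelihood test on the injury numbers with times combined, or on the 12 groups for comparisons of times, and Benjamini-Hochberg adjustment over all features, at an adjusted p under 0.05. DESeq2 1.42.0 served as an alternative. The main test across groups departs from the study in using edgeR. Gfap was also compared with sham on log2(CPM + 1) by exact two-sided permutation tests. The tests were checked on simulated counts with known changes. The members and gene lists were chosen with earlier results of these data known. The genes named as most like Gfap were the 10 with the highest Spearman's rho, by a rule set with the design. The splits by sample number within 5xCHI against 1xCHI, leaving out samples 10 and 11, and leaving out sample 1 or 3 in place of sample 30 were added after seeing the data. Promoters and motifs came from RefSeq on GRCm38.p6, and gene positions from GENCODE release 21.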

Additional observations from a re-analysis of the deposited data

Results flagged for a closer look

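In groups of 4 to 10 samples, a sample was taken as far from the others when its gap to the nearest of them exceeded Dixon's 95% critical value. Of 70 groups of member values, some of which contain others, 4 held such a sample on the log2(CPM + 1) scale and 16 on the CPM scale, 3 of them on both, where chance gives about 1 in 20, or 3.5. The CPM scale was added after seeing the data. On both scales sample 11 of 5xCHI 24 h was far above its group for Gfap (2410.2 CPM, against 190, 113 and 130 CPM) and for Vim (764 CPM, against 50.4, 33 and 33.4 CPM). On the CPM scale it was also far above it for Serpina3n (308 CPM), Cd44 (22 CPM), Timp1 (12.9 CPM) and Aspg (10.6 CPM), and far above the other 5xCHI samples for Vim, Serpina3n, Timp1 and Lcn2 (12.7 CPM). In the same sample the microglia markers summed to 1007 CPM and the neuron markers to 8868 CPM, the highest and the lowest of all 39 samples. Their part in its member levels was not tested. On the CPM scale alone, S1pr3 was far above the other 5xCHI samples in sample 10 (38 CPM), Cp (26.9 CPM) and Aspg (11.9 CPM) were far above the other 1xCHI samples in sample 15, Cp was far above the other 5xCHI 24 h samples in sample 12 (21.4 CPM), and Timp1 above the other 3xCHI 24 h samples in sample 38 (3.1 CPM). For Lcn2, on both scales, sample 17 of 1xCHI 24 h had 0.174 CPM, or 3 counts, where the other 3 samples of the group had 0, so this gap lies within what 3 counts can give. For S1pr3, on the log2 scale alone, sample 37 of 3xCHI 24 h had 10.6 CPM, below the other 3 samples of the group and within the sham range of 6.63 to 11.5 CPM. Sample 30, which was in no comparison, had 0 of the 10 members above the highest sham sample, with Gfap at 114 CPM and Vim at 34.4 CPM.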

How the results depend on the processing

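The direction and side of the threshold, or for counts a value within 1.5 times, held in 440 of 458 recomputed main values and in 828 of 925 values of single genes, and not in the other 18 and 97. Most of the main values were counts of members called, which were 0 in every comparison but 5xCHI against 1xCHI. A count of 0 that stays 0 says little of how stable a result is. The settings were DESeq2, library size alone, no filter on low counts, other pseudocounts, untransformed CPM, the compared groups alone, the slope without sham, another correlation, sample 30 included, sample 1 or 3 left out in its place, each sample left out, samples 10 and 11 left out, the sample number range as a covariate, and either range alone. The number of members called in 5xCHI against 1xCHI (4) was 5 by DESeq2, 2 without the filter, 0 without samples 10 and 11, 0 in samples 19 to 40, and 1 to 5 with 1 sample left out (2 without sample 18). The features called there (346) were 620 by DESeq2, 132 without the filter and 538 with the covariate, and 118 to 717 with 1 sample left out. In 5xCHI against sham 1 member was called by DESeq2, in 3xCHI against 1xCHI 1 without samples 10 and 11, and in 1xCHI 4 h against sham 0 to 1 with 1 sample left out, the 1 being Aspg (2.08) without sample 36. Features differing between time points (5) were 64 by DESeq2, 17 without the filter and 2 to 28 with 1 sample left out.

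In samples 19 to 40 the log2 estimates reversed in 5xCHI against 1xCHI for Gfap (-0.40), Vim (-0.10), Serpina3n (-0.27), Cd44 (-0.72), S1pr3 (-0.029) and Osmr (-0.58), and in 5xCHI against sham for Gfap (-0.29), Serpina3n (-0.088) and Osmr (-0.17). There the difference of Gfap in log2(CPM + 1) was -0.27 after 5xCHI, and that after 3xCHI was 1.24 (1.22 over all samples), where 4 against 3 samples allow no p below 0.0286 before adjustment, so the lost call says nothing of stability. It did not pass after adjustment at 1.06 with sample 30 included, or at 0.99 and 1.12 with sample 1 or 3 left out in its place. With the covariate Gfap after 2xCHI was 0.049 (-0.13 without it), and with 1 sample left out the 24 h estimates of 5xCHI against 4xCHI ran from -0.10 to 2.77 for Vim and from -0.46 to 2.20 for Gfap, the lowest without sample 11. The cause was not tested in any of these cases. No paired analysis was possible because every sample has its own number, and no number is shared between groups. Depth limited Timp1 and Lcn2, which had 0 to 12 counts in sham.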
